A study of Brassica oleracea var. italica with 2 samples.

Results

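The miR164 family, the 22 of 1400 records of known miRNAs in the deposited table whose name carries the number of the family (6 of them with counts), was examined in small RNA (sRNA) from shoot apexes of broccoli, in a heat-tolerant (HT, CNE) and a heat-sensitive (HS, CNL) line described as isogenic. The HT line is labelled with a high and the HS line with a low curd-forming capacity. Plants of both lines were raised under 18 h of light and 6 h of dark, and the labels give an age of 54 days, whereas the methods of the study state another age. The sample names place both libraries at 22 °C. Each line gave 1 library of RNA of 18 to 30 nt, so every test below compares 2 libraries and not 2 genotypes, and no difference has a replicate check. The number of plants behind a library is not given in the sources used here. The tables list small RNAs, so the labelled tissue could not be checked against marker genes.

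The 6 miR164 records with counts were among 169 such records in the whole table. The libraries totalled 27069903 (HT) and 26253036 (HS) reads, and the records with counts held 38431 in HT (0.142%) and 28582 in HS (0.109%). This is a small part of what the study assigns to known miRNAs, and the shares, ranks and summed counts given here refer to the deposited records alone. Levels are given in TPM, the authors' unit, which scales the count of a record to the library total. Intervals in parentheses are exact 95% intervals (Clopper-Pearson), which cover counting error only.

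A plant miRNA is cut as a duplex from a hairpin precursor. The mature strand guides an Argonaute protein to complementary mRNAs, and the opposite strand of the duplex, the star strand, is mostly degraded. In Arabidopsis, miR164 directs cleavage of mRNAs of NAC transcription factors, among them CUC1 and CUC2, which set the boundaries between organs at the shoot apex, NAC1, which acts in lateral root formation, and ORE1, which promotes leaf senescence. Loss or excess of miR164 in Arabidopsis changes petal number, leaf margins and the separation of organs. None of these mRNAs was measured here.

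The 3 mature miR164 sequences with counts are shown because nearly all reads of the family carried 1 of them, and they differ only at the 3′ end. Capitals mark the seed, bases 2 to 8, and letters are written 5′ to 3′ with T for U, as in the table.
miR164a: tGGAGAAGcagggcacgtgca
miR164c: tGGAGAAGcagggcacgtgcg
miR164e: tGGAGAAGcagggcacgtaag
All 3 share the seed and their first 18 bases. Counted from 1 at the 5′ end, with the base of miR164a first, miR164c differed from miR164a by A21G, and miR164e differed by G19A, C20A and A21G. No counted record outside the family had this seed (0 records). The table lists the miR164a sequence with counts under the rice name osa-miR164d, whose own miRBase sequence differs at the last base (T21A, miRBase base first). The same letters are listed elsewhere in the table as ath-miR164a of Arabidopsis, which is why the record is called miR164a here.

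Positions are those of the B. rapa genome (version 1.1) used by the authors, since the reads were placed on that relative of broccoli, and they are counted from 1 here. No gene annotation of that build was used. The counted miR164a record lay on the minus strand of chromosome A02 at chrA02:1457258-1457278, miR164c on the plus strand at chrA02:24476928-24476948, and miR164e on the minus strand at chrA02:2561269-2561289. The letters of miR164a were also listed on the minus strand at chrA05:150937-150957, on 4 records without a count, and those of miR164c on the minus strand at chrA06:18231543-18231563, on 2 records without a count. A read of these sequences does not tell which copy it came from, so the values below belong to the sequence and not to a locus.

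Counts of records with the same letters could be compared elsewhere in the table. Whether such records hold separate reads or the same reads counted again was not tested. If the same, sums over records, including the summed known miRNA counts, hold some reads more than once. There were 13 sequences with counts on several records, and 7 of them reached 1000 reads over both libraries. In 6 of these 7, the record with the fewest reads held 90.1% to 99% of the reads of the record with the most in HT, and 84.8% to 99.6% in HS. The exception was a miR166 sequence, with 24 reads on 1 record and 1245 on the other in HT, and 7 and 1273 reads in HS. Whether the count on A02 holds all miR164a reads, or a part of them with the rest left out on A05, cannot be told apart from the deposited values, and the same holds for miR164c on A02 and A06.

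Of the 16 records without a count, 10 had a sequence of no counted record, and these 10 covered 7 distinct sequences. A missing count is not a 0. Among them was a sequence of 20 nt at chrA05:150938-150957, the miR164a sequence without its last base, listed under the soybean name gma-miR164b. The 2 mature sequences printed next are the others without a count, and they show how far the mature arm varies among the copies that the table places on this genome.
far-miR164a: tGGAGAAGcagggcacttgct
vun-miR164: tGGAGGAGgggagcacgtgca
The first lay at chrA05:21104114-21104134 on the plus strand and differed from miR164a by G17T and A21T. The second lay at chrA01:25346893-25346913 on the plus strand and differed by A6G, C9G, A10G and G12A, so that it was the only mature sequence of the family with another seed, by the base at position 6. Over all mature records, 12 had the seed of miR164a and 1 had the other seed.

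miR164a was the abundant member in both libraries. It had 4063 reads in HT and 3048 reads in HS, or 150.1 (145.5 to 154.8) TPM in HT and 116.1 (112 to 120.3) TPM in HS, without overlap of the intervals. In TPM, miR164a was 1.29-fold higher in HT (interval 1.23 to 1.36, log2 fold change 0.37, two-sided Fisher's exact test, p = 5.3e-27, Benjamini-Hochberg adjusted p = 8.1e-26), and the difference was gone when the libraries were scaled to the summed counts of known miRNAs, where the fold was 0.99 (interval 0.946 to 1.04, p = 0.704). On the scale of all reads, the fold stayed below the 2-fold change used for a call. In RNA of whole apexes, fewer cells with the miRNA and less of it per cell cannot be told apart.

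miR164c had 125 reads in HT and 107 reads in HS, or 4.62 (3.84 to 5.5) TPM in HT and 4.08 (3.34 to 4.93) TPM in HS. These intervals overlapped. The fold was 1.13 on the scale of all reads and 0.87 on that of the summed known miRNA counts (interval 0.868 to 1.48, Fisher's exact test, p = 0.358, and interval 0.666 to 1.14, p = 0.288). A change of miR164c by 2-fold in either direction lies outside both intervals as far as counting error goes. miR164e had 2 reads in HT and 1 read in HS. Both values are at or under the floor of 3 reads, which is 0.111 TPM in HT and 0.114 in HS, so no fold is given.

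**Figure D1:**
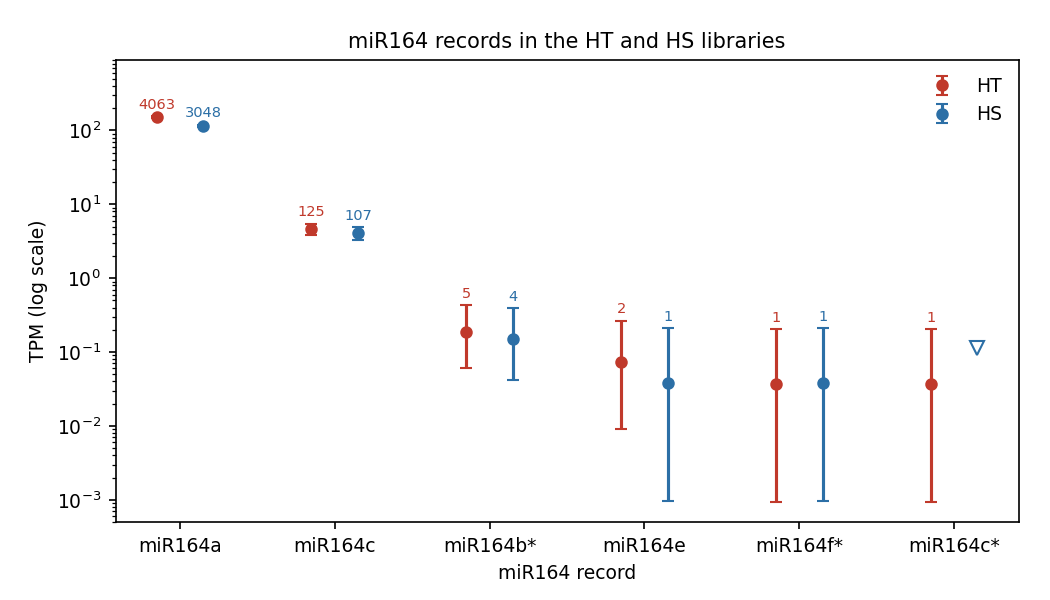
TPM (log scale) of the 6 miR164 records with counts, in the HT library (red) and the HS library (blue). Points are single libraries, bars are exact 95% counting intervals, numbers are raw reads, and the open triangle marks the floor of 3 reads for the count of 0 in HS (0.114 TPM), not an interval. Only for miR164a do the HT and HS intervals stand apart (4063 and 3048 reads).

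The ratio within the family was close in the libraries. For each read of miR164c there were 32.5 (27.2 to 39.2) reads of miR164a in HT and 28.5 (23.5 to 34.9) in HS. miR164a made up 97% (96.5% to 97.5%) of the reads of miR164a and miR164c in HT and 96.6% (95.9% to 97.2%) in HS. The odds ratio of HT over HS was 1.14 (two-sided Fisher's exact test, p = 0.346), so a shift between the 2 members was not detectable at this depth. miR164a and miR164c differ by their last base alone, and whether a count includes reads with a mismatch to the listed letters is not given in the sources used here.

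Dominance by 1 sequence was not particular to miR164. Among the 11 families that reached 1000 reads over both libraries with 2 or more sequences, the leading sequence of miR164 held 96.8% of the family's reads in HT and 96.4% in HS, which gave it rank 5 in HT and rank 4 in HS. In miR319, which directs cleavage of mRNAs of TCP factors in Arabidopsis, the leading sequence held 96.1% in HT and 93.5% in HS. In miR166, which acts on HD-ZIP III mRNAs, it held 44.5% in HT and 49.4% in HS, so the reads of that family were spread over several sequences. Counts of records with the same letters were added for these shares, which hold only if such records do not count the same reads. This was not tested, and the same limit holds for the star shares of miR166 and miR156 below.

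Star reads were few. The 3 star records with counts are shown for how each could pair with a mature sequence in a duplex. miR164a and miR164c differ only in their last base, outside the facing bases of the duplex, so both pair alike with each star.
miR164b*: catgtgcccatcttccccatc
miR164f*: cacgtgccctgcttctccaac
miR164c*: cacgtgttctactactccaac
miR164b* had 5 reads in HT and 4 reads in HS, with a fold of 1.21 whose interval ran from 0.261 to 6.11 (Fisher's exact test, p = 1). miR164f* had 1 read in each library. miR164c* had 1 read in HT and 0 reads in HS, where the floor of 3 reads is 0.114 TPM and the exact upper bound of a count of 0 is 0.141 TPM. No fold is given for miR164f* and miR164c*, since both libraries were under the floor.

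Summed, star records had 7 reads against 4190 mature reads in HT, and 5 reads against 3156 mature reads in HS. This was 599 (290 to 1490) mature reads per star read in HT and 631 (270 to 1945) in HS. Star reads were 0.167% (0.0671% to 0.343%) of all miR164 reads in HT and 0.158% (0.0514% to 0.369%) in HS, and the difference was not detectable (Fisher's exact test, odds ratio 1.05, p = 1). By comparison, star records held 0.451% of the reads of miR319 in HT and 0.441% in HS, and 25.6% of the reads of miR166 in HT and 23.8% in HS. A low star share was not particular to miR164. In HT, miR162 (0.14%) and miR156 (0.149%) were lower among the 11 families. miR395 had no counted star record, so its star share is not known and is not compared here. In HS, miR162 (0.151%) was lower and miR156 (0.373%) was higher. The shares of miR162 and miR156 rest on 4 star reads or fewer in each library.

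Only miR164b* lay on a hairpin with a counted mature record. It was at chrA02:1457147-1457167 on the minus strand, with 90 bases between it and miR164a and 132 bases from end to end. There were 813 reads of miR164a in HT and 762 in HS for each read of miR164b*. With overhangs of 2 nt at both 3′ ends, 16 of 19 facing positions could pair, 15 of them by Watson-Crick pairs and 1 by a wobble, and positions 4, 9 and 10 of miR164a did not pair. The star letters differed from the A. lyrata sequence of that name by A16C, miRBase base first, and star position 16 faces position 4, which did not pair.

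miR164f* lay at chrA01:25346949-25346969 on the plus strand, with 35 bases between it and vun-miR164, which had no count. It paired with vun-miR164 at 17 of 19 positions and with miR164a at 19 of 19, all 19 by Watson-Crick pairs. The opposite strand at miR164f* thus reads as bases 1 to 19 of miR164a. Whether the miR164f* reads come from a star strand or from the antisense of a miR164a copy was not tested. The miR164f* letters differed from the maize sequence of that name by G8C and C11G. miR164c* lay at chrA09:2022912-2022932 on the minus strand, on a chromosome with no mature miR164 record, and 17 of its 19 facing positions could pair with miR164a. With 1 read in each library or fewer, neither record gives more than a trace.

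**Figure D2:**
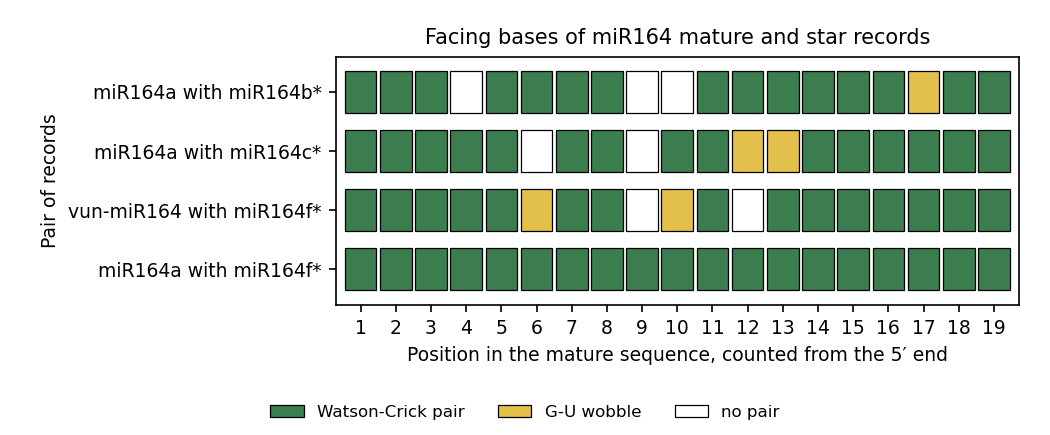
Pairing of miR164 mature and star records at the 19 facing positions of a duplex with overhangs of 2 nt, by position in the mature sequence (horizontal axis). Each row is a pair of records, and squares show Watson-Crick pairs (green), wobbles (yellow) or no pair (white). miR164a and miR164b*, the pair on chromosome A02, have 3 positions without a pair, and miR164a with miR164f* has none. miR164f* is thus antisense to bases 1 to 19 of miR164a. miR164c, not drawn, pairs as miR164a does.

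The other star records on the table had no count. Of these, aly-miR164a* and zma-miR164g* shared 1 sequence on the minus strand at chrA01:25346891-25346911. They overlapped vun-miR164 on the opposite strand by 19 bases, and thus lie where its antisense strand would be. The same minus strand reads as bases 1 to 19 of miR164a across miR164f*, and whether these 2 records are its star was not tested. Among all 22 records, 19 had letters equal to the genome sequence given on the record and 3 did not (zma-miR164a*, zma-miR164c* and zma-miR164d*). None of the 54 candidate sequences in the deposited tables of newly identified miRNAs, which list only those chosen for differing between HT and HS, shared a run of more than 9 bases with a miR164 sequence on either strand, and 0 of their 281 stem-loops lay within 5000 bases of a miR164 record. The authors sought these candidates only among reads left after the search against known miRNAs. Close matches to miR164 were thus removed beforehand, and this absence cannot show whether further miR164 members exist.

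By the rule used for known miRNAs, an unadjusted p under 0.001 with a fold change over 2, 0 of the 6 miR164 records were called. miR164e and the star records, with 5 reads or fewer in each library, could not reach this p whatever their split. Even 9 reads in HT against 0 in HS (gma-miR156g) gave p = 0.00394 by Fisher's exact test. Only miR164a and miR164c could thus have been called. Over all known miRNAs 21 of 169 records were called, or 12.4%. With p alone, 1 of the 6 passed (miR164a, higher in HT), against 34 of 169 records, or 20.1%, and 23 of these were higher in HT (13.6%). The sum of the 6 records was 4197 reads in HT and 3161 reads in HS, or 155 TPM in HT and 120.4 TPM in HS. Their fold was 1.29 (interval 1.23 to 1.35, Fisher's exact test, p = 4.5e-27) on the scale of all reads and 0.99 (interval 0.943 to 1.03, p = 0.574) on that of the summed known miRNA counts.

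The fold of miR164a was close to that of the summed known miRNA counts. The summed counts of the 163 records outside the family were 1265 TPM in HT and 968 TPM in HS, a fold of 1.31 (interval 1.28 to 1.33). The median log2 fold change over the 69 records that reached 50 reads over both libraries was 0.37, and miR164a was the record at that median, with 34 records below it. Over the 19 records that reached 1000 reads the median was 0.16, and 13 of them were below miR164a. miR164a took 10.6% (10.3% to 10.9%) of the deposited known miRNA reads in HT and 10.7% (10.3% to 11%) in HS, with an odds ratio of 0.99 (Fisher's exact test, p = 0.704). The whole family took 10.9% (10.6% to 11.2%) in HT and 11.1% (10.7% to 11.4%) in HS (odds ratio 0.986, Fisher's exact test, p = 0.574).

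**Figure D3:**
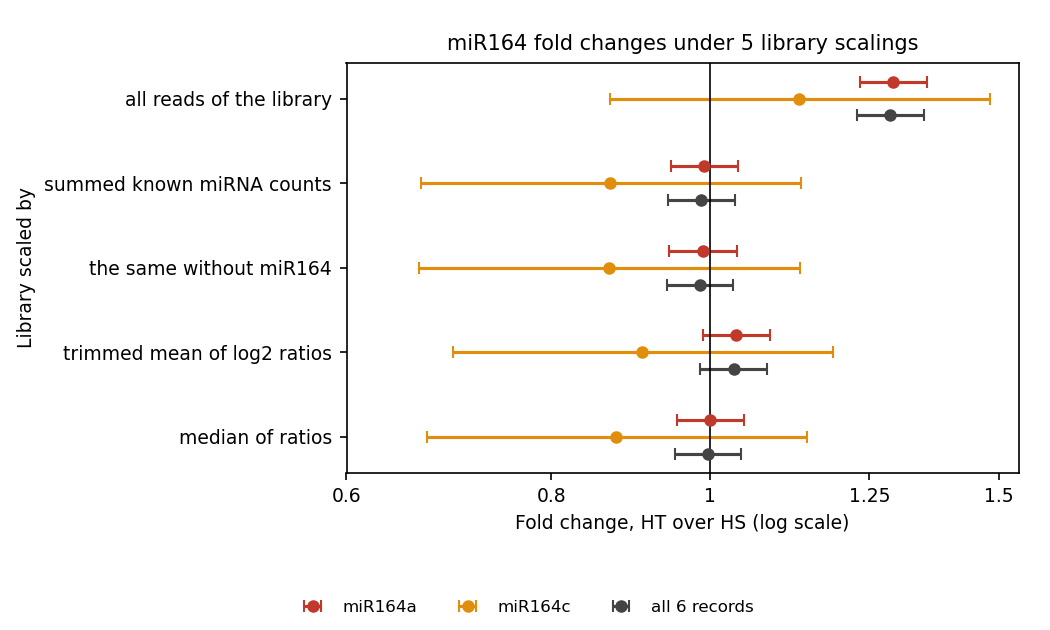
Fold change of HT over HS (log scale) for miR164a (red), miR164c (orange) and the sum of the 6 miR164 records (dark grey), with the libraries scaled in 5 ways. Points are fold changes and bars are exact 95% counting intervals. miR164a and the sum lie at 1.29 only with all reads of the library as the scale, and at 0.99 to 1.04 with the other 4.

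Besides the summed known miRNA counts, the other scales were the same counts without miR164, a trimmed mean of log2 ratios over the records, and the median of their ratios. Scaling by the trimmed mean gave a miR164a fold of 1.04 (interval 0.989 to 1.09, Fisher's exact test, p = 0.129). These 4 scalings lowered all log2 fold changes by between 0.32 and 0.39, and so moved the split of the called records. With the summed known miRNA counts as the scale, 9 records were called higher and 9 lower in HT, against 14 higher and 7 lower with all reads. Which scale fits the amount of miRNA per cell in these apexes was not tested.

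miR164a had rank 2 by level among the 169 records in both libraries. The record above it was vvi-miR319g, with 307 (300.5 to 313.8) TPM in HT and 202 (196.7 to 207.6) in HS, and it had 2.05 reads for each miR164a read in HT and 1.74 in HS. The record below it was zma-miR166c*, with 69.6 (66.5 to 72.9) TPM in HT and 66.9 (63.8 to 70.1) in HS. The intervals of miR164a overlapped neither of these neighbours. When the counts of records with the same letters were added, miR164a had rank 2 of 151 sequences in HT and rank 3 in HS, where a miR166 sequence on 3 records had 4010 reads. By summed reads, miR164 had rank 3 among the families in both libraries, after miR319 and miR166. The ranks from added counts hold only if records with the same letters do not count the same reads, which was not tested.

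**Figure D4:**
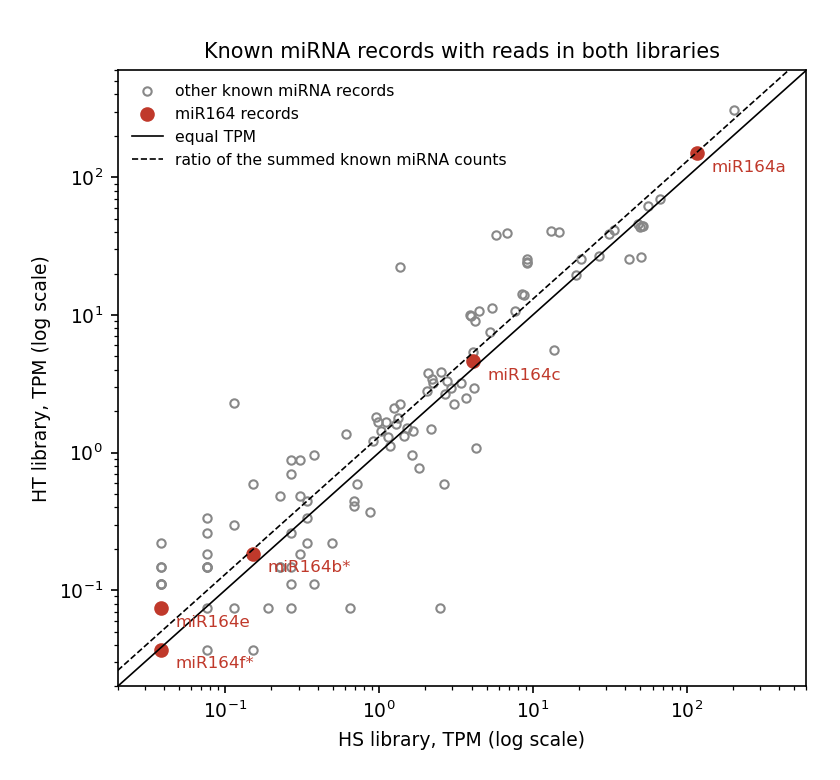
TPM in the HT library (vertical, log scale) against the HS library (horizontal, log scale) for the 119 known miRNA records with reads in both. miR164 records are red and named, other records are open circles, the solid line marks equal levels and the dashed line the ratio of the summed counts (1.30). miR164a lies next to the dashed line, and miR164c lies between the lines.

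Of the records that reached 1000 reads over both libraries, the 3 whose log2 fold change was nearest to that of miR164a were ath-miR167d, ath-miR165a and mtr-miR166d (18 compared). ath-miR167d, of a family that acts on auxin response factors, had 695 reads in HT and 541 reads in HS, with a log2 fold change of 0.32. ath-miR165a had 1052 reads in HT and 826 reads in HS, with a log2 fold change of 0.30, and mtr-miR166d had 1124 reads in HT and 884 reads in HS, with a log2 fold change of 0.30. The last 2 have the same letters and are not independent. The likeness rests on 2 libraries. With the summed known miRNA counts as the scale, all 3 log2 fold changes fell below 0 (-0.07, -0.08 and -0.08), as did that of miR164a (-0.0125). A change of scale moves all records alike and leaves the differences between them unchanged.

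Some other miRNA families with known roles at the shoot apex were taken as a list by number, called the shoot apex list. They act on TCP, MYB, HD-ZIP III or GRAS regulators, on auxin signalling, or on stem cells and growth. The list holds miR159, miR160, miR165, miR166, miR167, miR170, miR171, miR319, miR390, miR393, miR394 and miR396. It leaves out miR156, miR157 and miR172, of which the study ties miR156 and miR172 to phase change and flowering. Each of these left-out families had records called higher in HT. The list was chosen with earlier results of these data known. Of its 58 counted records, 0 were called higher in HT, against 8.28% of all records, and 1 was called lower, against 4.14%. The 0 therefore depends on which families were listed. By p alone 8 were higher and 3 lower (background 13.6% and 6.51%), but only 1 was higher and 9 were lower with the summed known miRNA counts as the scale, where the background was 8.88% higher and 11.8% lower. The median log2 fold change was 0.30 over the 52 records with reads in both libraries, against 0.32 over 119 of all records. Several records on the list share a sequence.

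Within this list, ath-miR394a, whose family acts on the F-box gene LCR in the shoot meristem of Arabidopsis, had the largest fold change past p. It had 102 reads in HT and 55 reads in HS, a fold of 1.80 (interval 1.28 to 2.54, Fisher's exact test, p = 4.1e-04, adjusted p = 0.00211), which was 1.38 with p = 0.0628 on the scale of the summed known miRNA counts. zma-miR166k*, a star record of a family that acts on leaf polarity genes, had the smallest. It had 21 reads in HT and 48 reads in HS, a fold of 0.42 (interval 0.241 to 0.722, Fisher's exact test, p = 7.0e-04, adjusted p = 0.00346), and 0.33 on the scale of the summed known miRNA counts. The fold of miR164a lay between these on either scale.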

How the data were processed

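Small RNA of 1 HT and 1 HS library was sequenced by the authors, who removed adaptors, low-quality reads and other non-coding RNAs, and searched what was left against the plant entries of miRBase, with few mismatches allowed. The deposited values used here are raw counts of reads per record. The deposited table holds line breaks inside its cells, so these columns are recorded under other units. Library totals were recovered as the deposited count divided by the deposited TPM. The rounded median over the records with reads was 27069903 reads in HT and 26253036 in HS. The table also holds a comparison by the authors (log2 fold changes, p-values), which was not used. Table positions count from 0, as judged from a miR2911 record that lay 1 base off its position in 3 candidate precursors, and were raised by 1 at the start.

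All 169 counted records were compared with Fisher's exact test (two-sided, scipy 1.17.1), each count set against the remaining reads of its library, with Benjamini-Hochberg adjustment over all records. A call needed p under 0.001 and a fold change over 2. The floor was 3 reads. The test and intervals were checked on simulated counts with counting error only. That check covers neither spread between libraries nor the choice of scale. The members and lists were chosen with earlier results of these data known. Named records are all counted miR164 records, the 3 deep records (at least 1000 reads) nearest in log2 fold change, the neighbours by level, and the extremes of the shoot apex list past p. Star and mature records on a strand within 300 bases were taken as 1 hairpin. Alternatives changed the library scale, the pseudocount, the call rule, the minimum of reads and the records summed.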

Additional observations from a re-analysis of the deposited data

How the results depend on the processing

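No paired analysis was possible because each line gave 1 library, and for the same reason no library could be left out. Of 35 alternatives, 22 kept the direction and the side of the call rule (p with fold), or a count within 1.5 times. Some could not differ from the main run, so this count does not measure robustness. The pseudocount entered the fold only and left p and interval unchanged. A 1.5-fold rule left the fold of miR164a unchanged, and the 6 counted miR164 records have 6 distinct sequences, so summing every record changed nothing. By p alone, miR164a passed under 2 of its 6 alternatives and the family sum under 3 of 7, none of them a change of scale. The library scale decided the direction of the miR164 values. With the summed known miRNA counts as the scale, the fold of HT over HS was 0.991 for miR164a, 0.869 for miR164c and 0.987 for the family sum. With the same counts less those of miR164 it was 0.990, 0.867 and 0.986. With the median of ratios it was 0.876 for miR164c and 0.996 for the family sum, and 1 for miR164a, with no direction, by construction, since that record is the median. With the trimmed mean it was 0.909 for miR164c, while miR164a (1.04) and the family sum (1.03) stayed above 1. None of these folds passed a p of 0.001 or a fold of 2. With star and mature reads of the same hairpin only, the odds ratio of star reads was 0.938 in place of 1.05, with p = 1 by Fisher's exact test in both, on 5 reads in HT and 4 in HS. The number of known miRNA records called, 21, was 10 with a fold over 3 and 34 with p alone, and 18 to 27 otherwise, except 16 with each sequence counted once. The 4 scalings of the shoot apex list were added after the data were seen, and 1 record was called in each. Depth limits miR164e and the star records, which had 5 reads or fewer in each library.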
